A study of Salmo salar with 12 samples.

Results

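ALDH6A1, AASS and AACS are enzyme genes of the breakdown of valine, of the breakdown of lysine and of the use of the ketone body acetoacetate for lipid synthesis in the liver. They were read at probes CUST_10190_PI426552878 (ALDH6A1), CUST_25715_PI426552878 (AASS) and CUST_33337_PI426552878 (AACS), 3 of the 55468 salmonid probes on the array, and all 3 members passed the filter on dim probes, which 29456 probes passed. The members were chosen by measured values: the study had listed ALDH6A1 and AASS as differentially expressed at all 3 doses and AACS at low U, on these same arrays. Every difference between exposed and control fish below is therefore a description with no test.

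Liver RNA of Atlantic salmon (Salmo salar) parr was measured on 12 one-colour arrays. The fish had spent 48 h in lake water, either without added metal (control) or with depleted uranium at a nominal 0.25 mg/L (low U), 0.5 mg/L (medium U) or 1.0 mg/L (high U), and each group had 3 arrays. Uranium was dissolved as uranyl acetate dihydrate, so acetate in the water varied with the dose and its part cannot be told apart from that of the metal. Fish of every group, controls included, were kept unfed and in the dark during exposure, in a static system. Each array held a separate RNA sample, so the error given here is the spread between those samples only. The fish loading stated in the methods is what all fish of a group in a shared tank would give, and the number of tanks per dose is not stated, so tank and dose cannot be told apart.

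ALDH6A1 encodes methylmalonate semialdehyde dehydrogenase, a mitochondrial enzyme that closes the valine route by making propionyl-CoA. AASS encodes the mitochondrial protein that carries out the opening steps of lysine breakdown through saccharopine. AACS encodes acetoacetyl-CoA synthetase of the cytosol, which activates acetoacetate so that its carbon can enter sterol and fatty acid synthesis. Liver makes ketone bodies and exports most of them in fasting, and it is a main site for the breakdown of lysine, while the opening step of valine breakdown takes place largely outside the liver in mammals. Roles are given as known from mammals, since salmon carry many duplicated genes and the copy that a probe reads is not known from the files.

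Several facts of the whole series touch these values. The 3 slides each held 1 array of every group, so slide and dose were not confounded. The intensity at the 75th percentile of an array, by which levels were scaled, was 55.2 to 73.5 in controls, 111.9 to 134.6 in low U fish, 120.9 to 152.5 in medium U fish and 68.2 to 93.7 in high U fish, so low and medium U arrays were brighter than control arrays throughout. The share of salmonid probes with every spot well above background was 45.1% to 49.3% in controls, 49.2% to 55.1% in low U fish, 54.6% to 61.5% in medium U fish and 45.7% to 49.2% in high U fish. Gene names were available for 853 probes only, all of them listed by the study, and none of the 17 hepatocyte markers sought was among them (0 of 17), so the tissue label was not checked against markers. In tissue RNA, fewer cells of a type and less RNA per cell cannot be told apart.

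ALDH6A1 was higher at every dose than in control fish. Its intensity was 66.5, 37.2 and 70.0 on the control arrays, 228, 349 and 279 in low U fish, 356, 487 and 258 in medium U fish, and 106, 177 and 192 in high U fish. All 9 exposed arrays were brighter than all 3 control arrays before any scaling. Low and medium U arrays were brighter as a whole, and the share of all probes with that unscaled pattern was not computed. Relative to the 75th percentile of each array, the log2 level was −0.14, −0.57 and −0.01 in controls, 1.03, 1.38 and 1.14 in low U fish, 1.22, 1.68 and 1.09 in medium U fish, and 0.63, 1.00 and 1.04 in high U fish. The scaled groups did not overlap with the control either: 9 of 9 exposed arrays lay above all controls, a pattern that 8.41% of all probes tested showed, and since the probe was chosen on this contrast nothing is read from the count. Control replicate 2 was the lowest of the 12 arrays and medium U replicate 2 the highest.

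The group means of ALDH6A1 were −0.24 ± 0.29 in controls, 1.18 ± 0.18 in low U fish, 1.33 ± 0.31 in medium U fish and 0.89 ± 0.22 in high U fish (log2 level, SD, n = 3 each). The difference from the control was 1.42 in low U fish, 1.57 in medium U fish and 1.13 in high U fish on the log2 scale (SE 0.22 each), which are 2.68-fold, 2.97-fold and 2.19-fold. Over all exposed arrays it was 1.37 (SE 0.18), against a median of 0.04 over all probes tested. Within slides 1, 2 and 3 the exposed arrays stood 1.42, 1.65 and 1.06 above their own control array, so the difference was present on each slide.

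The shape over dose was a step at low U followed by little further movement that these arrays could resolve. The difference of a dose pair does not use the control arrays, but its error and p-value come from 1 fit over all 4 groups. The one-way test by which the study picked its genes also ran over all 4 groups. The p-values are therefore not fully independent of the choice. ALDH6A1 at medium U differed from low U by 0.15 (95% CI −0.34 to 0.64, limma adjusted p = 1.0). At high U it differed from medium U by −0.44 (95% CI −0.93 to 0.05, limma adjusted p = 0.809) and from low U by −0.29 (95% CI −0.78 to 0.20, limma adjusted p = 0.908). In limma 0 of 29456 probes (0.0%) passed an adjusted p of 0.05 and a 1.5-fold change between any pair of doses, against 408, 1288 and 1017 at an unadjusted p under 0.05 and that fold for medium against low, high against medium and high against low U. The methods' one-way test with its Tukey step called 16, 126 and 57 of 29288 probes in the same order. It was run here on the percentile scale at an adjusted p of 0.05, while the paper prints a more lenient cut-off for the one-way test. The interval for high against medium U reaches −0.93, so these values do not exclude a lower level of that size at high U. The adjustment over 29456 probes also bears on which pairs pass, so a pair that did not pass is no evidence of equal levels. From lowest to highest the levels ran control, high, low and medium U, and neither pair of neighbouring doses passed the test. Leaving out medium U replicate 2 gave −0.025 for medium against low U and −0.27 for high against medium U, leaving out medium U replicate 3 gave 0.27 for medium against low U, and leaving out high U replicate 1 gave −0.16 for high against low U, and no pair passed the test when any 1 of the 12 arrays was left out. With arrays scaled to 7 spike-in probes in place of the 75th percentile, high U lay 1.20 below medium U and passed the test (limma adjusted p = 0.0209, range 0.0209 to 1.0 over the alternatives). The median of all probes was itself 0.79 lower at high U on that scale, and 12877 probes were called there, so the call says nothing particular of ALDH6A1.

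**Figure D1:**
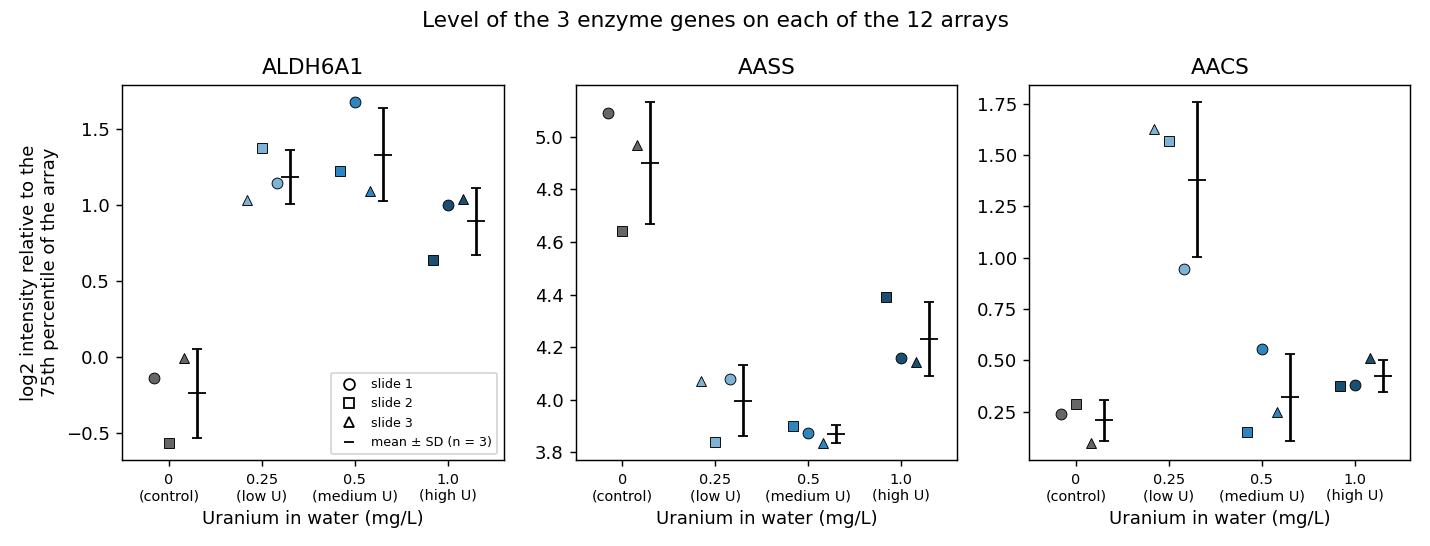
Log2 intensity relative to the 75th percentile of the array, against uranium in water in mg/L, for ALDH6A1, AASS and AACS. Each point is an array, its shape the slide, and bars give the mean ± SD (n = 3 arrays); ALDH6A1 stepped up in low U fish, AASS lay lower at every dose on this scale (with spike-in scaling 8 of 9 exposed arrays lay within the control range), and AACS stood apart in low U fish, where its mean was 1.38 against 0.21 in controls.

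AASS took the opposite direction on the percentile scale. Its level relative to the 75th percentile was 5.09, 4.64 and 4.97 in controls, 4.07, 3.84 and 4.08 in low U fish, 3.90, 3.88 and 3.84 in medium U fish, and 4.39, 4.16 and 4.14 in high U fish. All 9 exposed arrays lay below all controls, as 5.59% of all probes tested did, and nothing is read from this count because the probe was chosen on the contrast. Mean levels were 4.90 ± 0.23 in controls, 3.997 ± 0.136 in low U fish, 3.87 ± 0.03 in medium U fish and 4.23 ± 0.14 in high U fish (SD, n = 3 each). The medium U arrays lay closest together of the 4 groups.

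The difference of AASS from the control was −0.90 in low U fish, −1.03 in medium U fish and −0.67 in high U fish (SE 0.17 each), or 1.87-fold, 2.04-fold and 1.59-fold lower. Over all exposed arrays it was −0.87 (SE 0.14), while the median of all probes was 0.04 and that of the 2946 brightest probes, to which AASS belongs, was 0.16. Within slides 1, 2 and 3 the exposed arrays stood at −1.05, −0.60 and −0.95 relative to their own control, so the sign held on each slide. Slide 2 carried control replicate 2, the dimmest control.

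The separation of AASS from all controls was seen with percentile scaling, and neither in the unscaled nor in the spike-in scaled values. Its intensity was 2503, 1378 and 2204 in controls, 1881, 1928 and 2140 in low U fish, 2277, 2239 and 1726 in medium U fish, and 1432, 1580 and 1654 in high U fish. Every exposed array lay inside the control range of 1378 to 2503. The high U arrays were nonetheless dimmer than control replicates 1 and 3, and with spike-in scaling high U differed from the control by −0.44. When the arrays were scaled to the spike-in probes, the exposed arrays differed from controls by −0.22, 8 of 9 of them lay within the control range and 1 lay below it. Under that scaling the median of all probes was 0.69 higher in exposed fish, where it was 0.04 higher with the percentile. Both scalings shift all probes of an array alike, so the difference of AASS lay 0.91 below the median difference of all probes on either scale. The size of any difference in its amount depended on the scale chosen. A fixed amount of total RNA per sample was mixed with the spike-in before labelling. Whether the share of that RNA that was labelled, or the labelling itself, moved the scale was not tested.

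Among doses, AASS was lowest at medium U on the percentile scale, but no dose pair passed the test. It differed by −0.13 between medium and low U (95% CI −0.50 to 0.25, limma adjusted p = 1.0). At high U it was 0.36 above medium U (95% CI −0.01 to 0.73, limma adjusted p = 0.780) and 0.23 above low U (95% CI −0.14 to 0.61, limma adjusted p = 0.898). Without low U replicate 2 the medium against low U value was −0.20, and high against low U was 0.16 without that array and 0.15 without high U replicate 1. With spike-in scaling the values for these 3 pairs were 0.16, −0.40 and −0.24, where the medians of all probes were 0.26, −0.79 and −0.51. Relative to those medians AASS stood at −0.10, 0.39 and 0.27, as on the percentile scale by construction. On the percentile scale, from lowest to highest, the levels ran medium, low and high U and then the control, and of these neighbours neither dose pair passed the test.

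**Figure D2:**
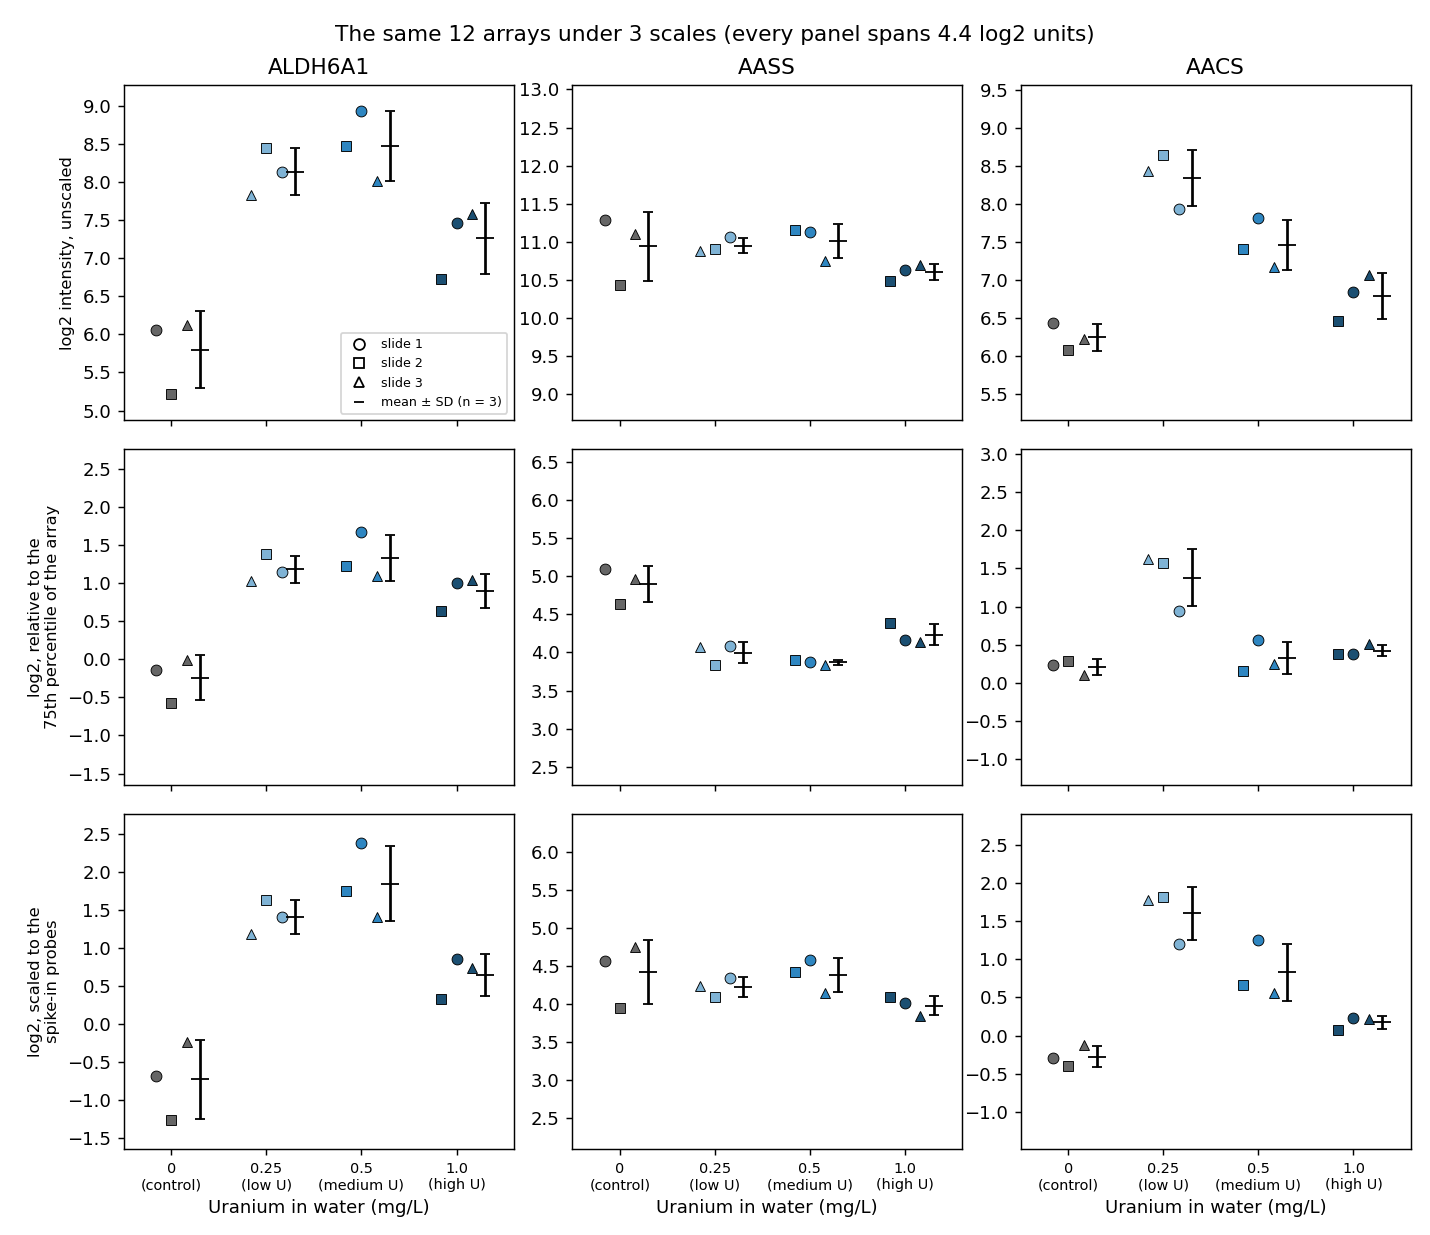
The same 12 arrays for each gene as unscaled log2 intensity (top row), relative to the 75th percentile of the array (middle row) and scaled to the 7 spike-in probes (bottom row), against uranium in mg/L; points are arrays, shapes slides, bars the mean ± SD (n = 3). ALDH6A1 lay above all controls in each row, whereas the separation of AASS was present in the middle row only, and AACS at medium U lay 1.10 above the control with spike-in scaling but 0.11 with percentile scaling. The share of all probes with such a separation was computed for the middle row only.

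AACS had another shape on the percentile scale: it was high at low U and close to the control at the other doses. The probe is printed at 2 spots on each array, and the values are the mean of both. Its intensity was 86.6, 67.5 and 75.2 in controls, 345, 400 and 243 in low U fish, 169, 224 and 144 in medium U fish, and 88.5, 115 and 134 in high U fish. The unscaled intensity was therefore highest in low U fish, next in medium U fish and lowest in controls, with no overlap between low U and any other group. Medium and high U fish also lay above all controls before scaling, high U by a small margin (88.5 against 86.6). The share of all probes with such separations was not computed.

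Relative to the 75th percentile, the log2 level of AACS was 0.24, 0.29 and 0.10 in controls, 1.63, 1.57 and 0.94 in low U fish, 0.15, 0.56 and 0.25 in medium U fish, and 0.38, 0.38 and 0.51 in high U fish. All 3 low U arrays lay above the 9 others, which 0.319% of all probes tested showed. The study listed the gene for its value at low U, so this count is a description. Of the 9 exposed arrays 7 lay above all controls, and the 2 exceptions were medium U arrays. The share of all probes with that pattern was not computed, so nothing is read from this count.

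The mean level of AACS was 0.21 ± 0.10 in controls, 1.38 ± 0.38 in low U fish, 0.32 ± 0.21 in medium U fish and 0.42 ± 0.08 in high U fish (SD, n = 3 each). It differed from the control by 1.17 in low U fish (SE 0.21, 2.25-fold), by 0.11 in medium U fish (1.08-fold) and by 0.22 in high U fish (1.16-fold). For AACS, medium and high U lay below the 1.5-fold limit that the study set. The smallest listed member value above that limit was the 1.59-fold of AASS at high U. The study listed the members with this limit on these same arrays, so nothing is read from which values passed it. Medium U minus low U was −1.06 and high U minus low U was −0.96. These differences are given without a test, since the gene was chosen for standing out at low U. Within slides 1, 2 and 3, low U stood 0.71, 1.28 and 1.53 above its own control array and medium U stood at −0.39, −1.42 and −1.37 relative to low U, so low U replicate 3 on slide 1 was the nearest to the rest.

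The 2 spots of AACS gave a like picture. Spot 2 differed from spot 1 by −0.39 to 0.67 on the log2 scale over the 12 arrays (median 0.02) and was the brighter on 6 of them. Low U minus control was 1.15 at spot 1 and 1.20 at spot 2, medium U minus control was 0.14 and 0.08, and high U minus control was 0.33 and 0.10. None of the 24 readings carried an outlier mark (0 of 24), all were above background, and the brightness of a spot over its local background ran from 2.85 to 18.5. For ALDH6A1 that ratio was 2.61 to 18.6 and for AASS 57 to 85.3, so AASS was the least limited by background.

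**Figure D3:**
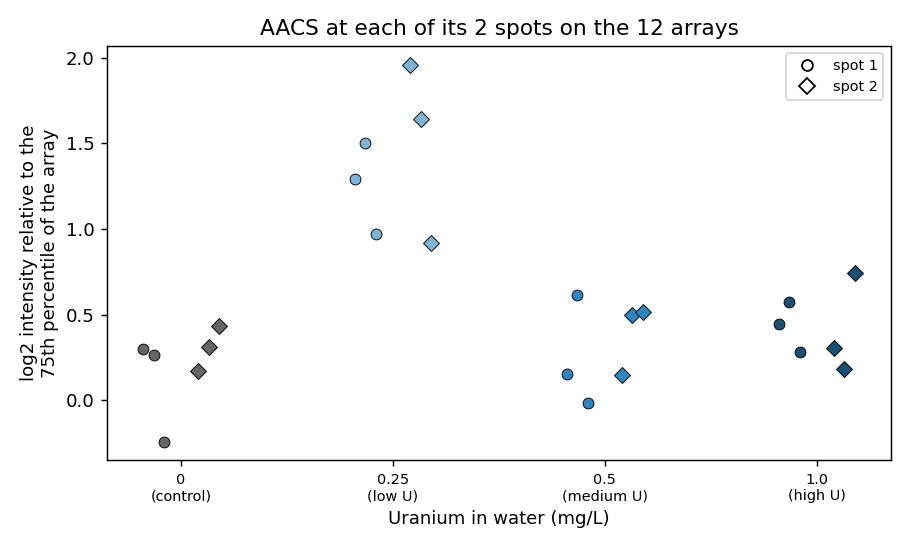
Log2 intensity of AACS relative to the 75th percentile of the array at spot 1 (circles) and spot 2 (diamonds) on each of the 12 arrays, against uranium in mg/L. At both spots the low U arrays lay above the arrays of the other groups, by 1.15 (spot 1) and 1.20 (spot 2) over the control in the mean.

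Scaling bears on AACS at medium U. With spike-in scaling it lay 1.88 above the control in low U fish, 1.10 in medium U fish and 0.45 in high U fish, and 9 of 9 exposed arrays lay above all controls. The share of all probes with that pattern was not computed on this scale, so nothing is read from the count. The median of all probes stood 0.79, 1.07 and 0.24 above the control at these doses. Relative to that median, AACS stood 1.09 higher in low U fish, 0.04 in medium U fish and 0.21 in high U fish. Low U was the dose of the highest AACS mean on both scales. At medium U the difference from the control was 0.09 to 0.13 with the percentile, quantile normalization, the value table and normexp background correction, against 1.10 with spike-in scaling.

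Other enzymes of valine and branched-chain amino acid breakdown had higher values alongside ALDH6A1. Of 27 genes on the list, 4 had a named probe, ALDH6A1 among them, and the other 3 were higher. BCKDHB, a subunit of the branched-chain keto acid dehydrogenase that commits these amino acids to breakdown, was 1.66, 2.04 and 1.65 above the control at low, medium and high U. DLD, the shared dihydrolipoamide dehydrogenase of that complex, was 1.14, 1.09 and 0.94 above it. AUH, a hydratase of leucine breakdown, was 0.84, 0.86 and 0.60 above it. A probe has a name only if the study listed it as changed, so these are not a sample of the pathway, and the list's other genes were not analysed here.

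For lysine breakdown 4 of 16 genes had a named probe, and the 3 beside AASS did not share its direction throughout. DLST, the core succinyltransferase of the 2-oxoglutarate dehydrogenase complex, was −0.65, −0.80 and −0.48 relative to the control at low, medium and high U, and with spike-in scaling the exposed arrays differed by 0.00, where all probes had the median of 0.69 given above. PIPOX, which oxidises pipecolate on the other lysine route, was 1.94, 2.31 and 2.04 above the control. CRYM, a ketimine reductase of that route, was 1.15, 1.60 and 1.43 above it. The saccharopine enzyme and the pipecolate enzymes therefore lay on opposite sides of the control on the percentile scale.

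For ketone bodies 4 of 15 genes had a named probe, and values here are on the percentile scale unless another is named. HMGCS1, the cytosolic HMG-CoA synthase that serves sterol synthesis, was −1.26, −1.51 and −0.88 relative to the control at low, medium and high U, and SLC16A1, a carrier of lactate and ketone bodies, was 1.07, 1.18 and 1.66 above it. CPT1A, which admits fatty acids to the mitochondrion, had 2 probes that disagreed: over all exposed arrays they stood at −0.71 and 1.32 relative to the control. With spike-in scaling they stood at −0.06 and 1.96. For lipid synthesis 4 of 21 genes had a named probe, among them AACS and HMGCS1. LSS, a sterol cyclase, was −0.43, −1.55 and −1.47 and FADS2, a fatty acid desaturase, was 1.86, 1.73 and 1.05 relative to the control at low, medium and high U. With spike-in scaling the exposed arrays differed from the control by −0.57 for HMGCS1, −0.51 for LSS, 1.95 for SLC16A1 and 2.19 for FADS2. The median of all probes was 0.69 on that scale. Among the doses on the percentile scale, LSS and FADS2 were highest at low U and HMGCS1 was highest at high U. LSS lay below the control at every dose and was nearest to it at low U, where AACS lay furthest above it. These differences were not tested.

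**Figure D4:**
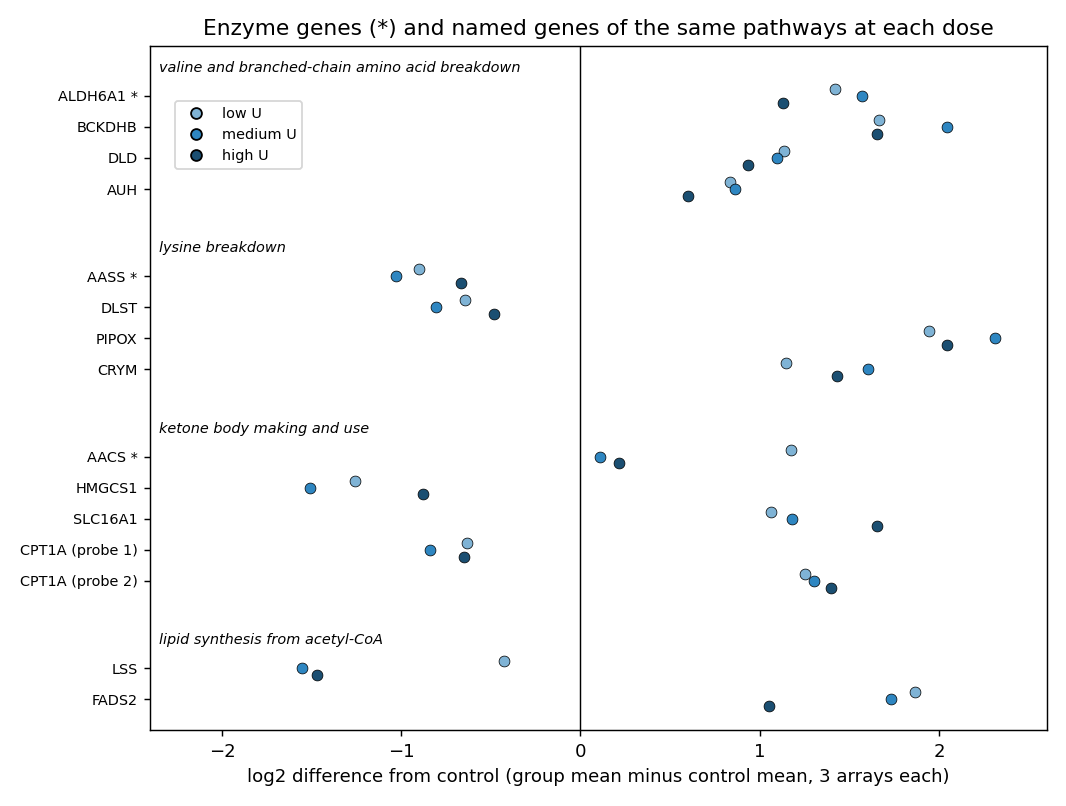
Log2 difference of each dose from the control (group means, 3 arrays each) for the 3 enzyme genes, marked with an asterisk, and for the named genes of their pathways; colours mark low, medium and high U. On the percentile scale shown, the named valine genes all lay to the right of 0 and the named lysine genes lay on both sides. A probe has a name only if the study listed it as changed, so these genes are not a sample of their pathways. AASS lay at −0.90, −1.03 and −0.67, a separation that was lost with spike-in scaling. AACS lay near 0 at medium and high U, but at 1.10 at medium U with spike-in scaling.

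The probes whose level over the 12 arrays was most like that of each gene were ranked by Pearson's r among 29287 probes. These values describe the pattern only, and since the 12 arrays fall into dose groups they largely restate the group means. For ALDH6A1 the 5 nearest were Rdhe2 (r = 0.988), a short chain dehydrogenase, Idh1 (0.980), the cytosolic NADP-dependent isocitrate dehydrogenase, gch1 (0.977), which opens tetrahydrobiopterin synthesis, SUSD2 (0.976) and CAB39 (0.976). For AASS they were a ubiquitin-conjugating enzyme listed as Ube2d2 (r = 0.974), ACIN1 (0.965), a probe described as bromodomain adjacent to zinc finger 1b-like (0.963), DLST (0.958) and a probe described as eukaryotic translation initiation factor gamma 1 (0.958). DLST was also on the lysine list, but PIPOX and CRYM of that list lay on the other side of the control. No pattern of the pathway is therefore read from the rank of DLST. For AACS none of the 5 nearest probes had a name, and r ran from 0.834 to 0.898, lower than for the other genes. The nearest, probe CUST_54379_PI426552878, stood 2.28 above the control in low U fish, 1.01 in medium U fish and 0.84 in high U fish.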

How the data were processed

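Cy3 intensity was measured on one-colour Agilent arrays. The authors scanned them and, with Agilent Feature Extraction 10.7, made the deposited intensity of each spot, background-subtracted and not scaled between arrays. The deposited table of log2 values, scaled and centred by probe by the authors, served as an alternative. Only 6 of its 12 columns matched the array of the same label best (all 12 matched an array of the same group), so it bears on group means only. Its centring method is not given in the sources used here.

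Control spots were left out, outlier-marked spots set to missing, repeated spots averaged, and the log2 75th percentile of each array subtracted. A probe entered the tests if some group had it well above background on all of its arrays and every group had at least 2 values. Groups were compared with limma 3.58.1 in R 4.3.3, in 1 fit over 4 groups, with two-sided Benjamini-Hochberg adjustment over 29456 probes, a threshold of 0.05 and a 1.5-fold minimum. The self-test recovered 77% of 200 simulated probes changed by log2 2 between medium and low U, among 29288 probes, with 4 false calls. Its noise was independent between arrays, and its change was larger than any tested dose-pair difference of ALDH6A1 or AASS. It therefore does not give the chance of detecting differences of their size. A test of the dose pairs of AACS was planned but is not reported, because the gene was chosen for its value at low U. Probes were named by matching fold changes computed from the value table to those of the study's gene tables. For its list of changed genes the relative tolerance was 2e-05, and ALDH6A1 matched at 3 doses, AASS at 2 and AACS at 1. Its list of mammalian orthologs was matched with a wider tolerance, and a match at 2 or more doses was required. The named genes are the 3 members, the 5 most correlated probes of each, and the listed pathway genes with a named probe. Other cell type markers sought (erythrocyte, pancreas, leukocyte, muscle, intestine) had 1 named gene, IGHM. The members, lists and tests were chosen with earlier results of these data known. Alternatives were the scaling, background correction, dim-probe filter, outlier marks, value table, blocks, the methods' one-way test and leaving out each array. The number of arrays limits the precision, and the scanner marked 0 spots as saturated. The authors' own fold changes and p-values are not reported.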

Additional observations from a re-analysis of the deposited data

How the results depend on the processing

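Of the 21 differences of ALDH6A1, AASS and AACS, the 6 tested kept their direction and their side of the threshold, and the others kept their direction and moved by less than the SD between arrays, with quantile normalization, the value table, no filter on dim probes, a filter on all 12 arrays, outlier-marked spots kept, the slide as a block, and, for the dose pairs, a fit on the doses compared and the methods' one-way test. As labelled on the scanner files, same-numbered arrays did not deviate together (6 of 18 pairs correlated above 0.1, median −0.01), so these numbers do not pair the samples. The replicate block changed no direction or call, ALDH6A1 exposed minus control being 1.37. With the labels of the value table, the numbers are those of the slides, where 15 of 18 pairs were above 0.1, and the block is then the slide block.

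Spike-in scaling shifted all probes alike, by a median of 0.69 for exposed minus control and 0.26, −0.79 and −0.51 for medium minus low, high minus medium and high minus low U, so the values that follow carry that shift. ALDH6A1 minus control was 2.02 over all doses, 2.13 at low and 2.56 at medium U, and high minus medium U was −1.20. AASS minus control was −0.22 over all doses, −0.20 at low, −0.036 at medium and −0.44 at high U, and its dose pairs reversed to 0.16 (medium minus low), −0.40 (high minus medium) and −0.24 (high minus low). AACS minus control was 1.14 over all doses, 1.88, 1.10 and 0.45 at low, medium and high U, medium minus low U was −0.77, high minus low U −1.43, and high minus medium U reversed to −0.66. Limma then called 0, 12877 and 0 probes for medium minus low, high minus medium and high minus low U, against 0 each with the percentile and the dim-probe filter. Of the 12877 probes, 12875 were lower at high U. With the percentile and no filter on dim probes, high minus medium U had 6117 calls among 55467 probes, 5927 of them higher at high U. With normexp background correction, chosen after seeing the data, ALDH6A1 minus control was 0.96 over all doses and 0.97, 1.21 and 0.71 at low, medium and high U; AASS was −0.53, −0.56, −0.56 and −0.46 likewise, and its medium minus low U value reversed to 0.0062; AACS was 0.90 at low U, with −0.77 for medium minus low and −0.72 for high minus low U. An offset of 50 was added to each intensity in that correction before the log2 step, and the cause of the normexp values was not tested.

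Leaving out each of the 12 arrays in turn gave 1.21 to 1.49 for ALDH6A1, −0.996 to −0.77 for AASS and 0.44 to 0.57 for AACS over all exposed arrays. Without medium U replicate 2, ALDH6A1 medium minus low U (range −0.025 to 0.27) reversed to −0.025 and AACS medium U minus control (range −0.0066 to 0.20) to −0.0066; the other 19 kept their direction. ALDH6A1 ranged −0.56 to −0.27 for high minus medium and −0.37 to −0.16 for high minus low U, and AACS 0.020 to 0.22 for high minus medium U.

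Depth was limited by signal over background for ALDH6A1 and AACS, whose control spots were the dimmest, and by 3 arrays per group.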

Other observations

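Of 30 genes for the breakdown of other amino acids 6 had a named probe, all named because the study listed them as changed on these arrays. Each was above all 3 controls on 9 of 9 exposed arrays, as 8.41% of all probes tested were, and nothing is read from that count. The values here are log2 differences over all exposed arrays on the percentile scale. The kynurenine route from tryptophan was represented by TDO2, its opening enzyme, KMO, a mitochondrial hydroxylase, and QPRT, which makes an NAD precursor. They stood 1.07, 1.17 and 1.02 above the control. OAT, which uses ornithine, stood 1.72 above the control, GOT2, the mitochondrial aspartate aminotransferase, 1.05, and AMT, of the glycine cleavage system, 0.58. By dose, AMT stood 0.67, 0.86 and 0.22 above it at low, medium and high U. The 24 unnamed genes of the list were not analysed here.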
